A study of Homo sapiens with 18 samples.

Results

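The arrays labelled SKBR3 compare cells in which LINC01269, a long non-coding RNA, was targeted by an antisense oligonucleotide (ASO) with cells given a control ASO. They were chosen by their titles, which gave 6 of the 18 arrays of the series, 3 in each of these 2 groups. The other 12 arrays hold 4 more groups of 3. They are from MDA-MB-231 cells and from MDA-MB-468 cells, each with its own control ASO group and a group whose ASO targets another non-coding RNA, AL078604.2. All were Affymetrix Human Gene 2.0 ST arrays. Both SKBR3 groups received GapmeRs at 15 nM for 48 h, carried into the cells by the transfection reagent TransIT-BrCa, so the control arrays share the reagent and the chemistry of the oligonucleotide and differ by its sequence. The labels name 1 ASO against LINC01269, with no second sequence against the same RNA and no untransfected cells among these groups. They do not say whether replicates came from separate cultures, so the p-values measure only the spread between these samples, which may be technical.

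SKBR3 is a HER2-positive breast cancer line, in which amplification of ERBB2 drives signalling through the MAPK and PI3K pathways. A GapmeR is a short modified DNA strand. It pairs with its target RNA in the nucleus or the cytoplasm and recruits RNase H, which cuts the RNA in the hybrid, so the method can reach nuclear non-coding RNAs. The comparison asks how gene expression in cells labelled as this line differs when LINC01269 is targeted.

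The targeted RNA itself gave no check of the labels. No feature (a transcript cluster of the array) was paired with LINC01269 by name, gene ID or accession, so its level was not analysed here. Of 53617 features, 16098 carried 1 gene symbol and 37519 were unnamed here. Levels are log2 values as deposited, and a difference is the mean of the 3 anti-LINC01269 arrays minus the mean of the 3 control arrays.

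The line's markers did not settle the label. In the control arrays, the luminal keratin genes KRT18 and KRT19 stood at the 98.7 and 98.3 percentile of all features, and the epithelial adhesion gene EPCAM at the 98.9 percentile. The control arrays labelled MDA-MB-231 had them at 98.5, 98.0 and 99.2, and those labelled MDA-MB-468 at 97.0, 98.0 and 99.3. KRT18 was read from its feature with the higher level, at 10.75, 10.65 and 10.72 in the SKBR3 control arrays. A second KRT18 feature stood at 7.23, 7.18 and 7.24 there, so the features of this gene disagree in level. Genes that lie beside ERBB2 and are known to be amplified with it stood at lower percentiles, with GRB7 at 79.2, STARD3 at 83.7, PGAP3 at 71.1 and MIEN1 at 86.0. The same 4 genes stood at 81.3, 84.9, 75.3 and 91.3 in the control arrays labelled MDA-MB-231, a line without that amplification, so neither set of genes sets the arrays labelled SKBR3 apart. ERBB2 had no named feature. Directions are therefore those between arrays labelled SKBR3. Of genes of other cells, LYZ stood at the 21.4 percentile, DCN at 6.3 and PECAM1 at 32.5, while PTPRC, CD3D and COL1A1 had no named feature. The basal and mesenchymal genes AXL (80.9), VIM (80.5), KRT14 (72.2), KRT5 (69.8) and ZEB1 (43.8) ranged from upper to middle ranks. VIM, known to be abundant in MDA-MB-231, stood at 72.2 in the control arrays labelled with that line.

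No feature passed the test. limma's moderated test, adjusted by Benjamini-Hochberg over all features, called 0 of 53617 (percent called, 0), and the smallest adjusted p was 0.908. At an unadjusted p under 0.05 there were 2745 features (5.12%), 1527 higher (2.85%) and 1218 lower (2.27%). Groups did not overlap for 5771 features (10.8%), 3189 of them higher (5.95%) and 2582 lower (4.82%). Differences of at least 1.5-fold were seen for 1305 features (2.43%), 673 higher (1.26%) and 632 lower (1.18%). Of these, 236 (0.44%) reached 2-fold, 123 higher (0.229%) and 113 lower (0.211%). All differences below are thus values that did not pass, given with their spread. The adjusted p is 0.908 for every gene given with a standard error (SE), unless another is printed.

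What stood out was a set of named genes that were far lower in 1 or 2 of the 3 anti-LINC01269 arrays. RTKN2, CCDC91, RASAL2, HIBCH and EVI5 headed it, with mean differences from -1.59 to -1.18, and all 3 control arrays of each gene lay close together. Replicate 1 of the anti-LINC01269 ASO was lowest, replicate 3 was between, and replicate 2 stood near the controls. A smaller set of genes stood higher in the same order of arrays, among them the microRNA genes MIR221, MIR222, MIR24-2 and MIR27A and the AP-1 gene FOSL1. The RNA was taken from whole cultures, so fewer cells with a transcript and less of it per cell cannot be told apart.

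The microRNA genes belong to clusters that are known to be transcribed together, and their mature products fall into families that share a seed, the stretch (bases 2 to 8) that pairs with target messages. The array reads the hairpin or primary transcript and not the mature microRNA. The mature 3p sequences of the cluster members are shown because they make the families visible across clusters; they are from RefSeq (GRCh38.p14), with the seed in capitals.
miR-221-3p: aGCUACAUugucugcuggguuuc
miR-222-3p: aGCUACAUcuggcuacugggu
miR-24-3p: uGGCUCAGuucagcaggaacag
miR-27a-3p: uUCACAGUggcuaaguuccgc
miR-27b-3p: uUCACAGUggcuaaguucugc
miR-23a-3p: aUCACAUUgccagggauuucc
miR-23b-3p: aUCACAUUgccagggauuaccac
The first pair has 1 seed, as has each of the pairs miR-27a and miR-27b, and miR-23a and miR-23b. MIR24-1 and MIR24-2 lie in different clusters and give the same mature sequence.

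RTKN2 was lower by the most among named genes above the median level of all features whose groups did not overlap. Its control levels were 8.01, 8.07 and 8.03, and its levels with the anti-LINC01269 ASO were 5.76, 7.61 and 5.98 in replicates 1, 2 and 3. Replicates 1 and 3 lay near each other and far under the controls, while replicate 2 lay just under them. The difference was -1.59 ± 0.429 (SE, n = 3 per group), or 3-fold lower. Without anti-LINC01269 replicate 2 the difference was -2.16 ± 0.0966 (SE), with a limma adjusted p of 0.0111. RTKN2 was the single feature called in that fit of 5 arrays. That fit is given because leaving out replicate 2 gave the most calls, and leaving out any other array gave 0. Replicate 2 is also the anti-LINC01269 array nearest to the controls for RTKN2, so this p is no independent support. With all 6 arrays the limma adjusted p was 0.908.

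CCDC91, which encodes a coiled-coil protein of Golgi trafficking, had control levels of 6.24, 6.13 and 6.10 against 3.57, 5.93 and 4.98. The groups did not overlap, yet replicate 2 was nearer to the controls than to either other replicate, and the difference was -1.33 ± 0.507 (2.51-fold lower). RASAL2, which encodes a GTPase-activating protein that switches RAS off, had control levels of 8.01, 8.13 and 8.09 against 5.66, 7.89 and 6.75. Its difference was -1.31 ± 0.472 (2.48-fold lower), with replicate 1 far from replicate 2. HIBCH encodes a mitochondrial enzyme of valine breakdown. Its control levels were 6.14, 6.20 and 6.11 against 3.89, 5.91 and 4.74, a difference of -1.30 ± 0.436 (2.47-fold lower).

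EVI5, a gene for a regulator of Rab GTPases and cell division, had control levels of 7.10, 7.03 and 6.88 against 5.01, 6.77 and 5.69, a difference of -1.18 ± 0.384. The helicase-like gene HLTF, whose product acts at stalled replication forks, was among the highest in level. It stood at 10.20, 10.30 and 10.30 in the controls against 7.94, 10.18 and 9.29, a difference of -1.13 ± 0.476. A second feature named HLTF, at a lower level, differed by -0.03, so the features of this gene disagree. UBE2K, which encodes a ubiquitin-conjugating enzyme, stood at 10.09, 10.07 and 10.01 against 8.11, 9.93 and 9.09, a difference of -1.02 ± 0.385.

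The other genes of the 10 lower by the most were SMIM8 (-1.0), the p53-inducible gene TP53INP1 (-1.0) and the prolyl endopeptidase-like gene PREPL (-0.93). In all 10, replicate 1 was farthest from the control mean and replicate 2 nearest. The standard deviation (SD, n = 3) ran from 0.031 to 0.114 in the control group and from 0.772 to 1.18 in the anti-LINC01269 group. Replicate 1 lay at least 1.69 below the control mean in each of the 10, and replicate 2 at most 0.43 from it.

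**Figure D1:**
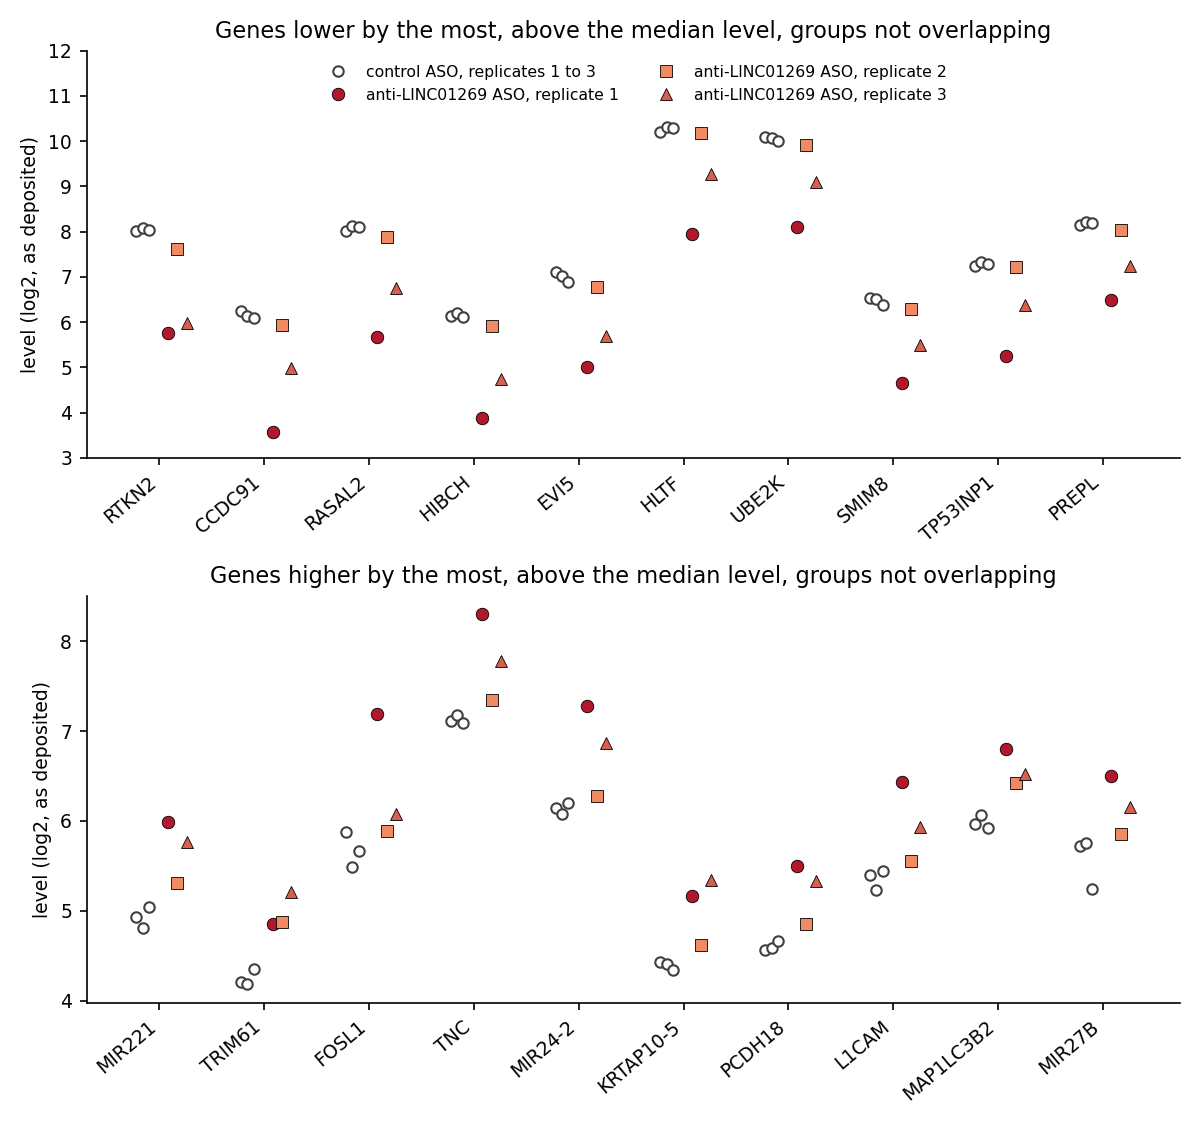
Levels (log2, as deposited) in each array for the 10 named genes lower by the most (top) and the 10 higher by the most (bottom) among those with a mean above the median of all features and no overlap between groups; open circles are control arrays and filled symbols the 3 anti-LINC01269 replicates. Control arrays of RTKN2 lie between 8.01 and 8.07 and the anti-LINC01269 arrays between 5.76 and 7.61, with replicate 2 nearest to the controls in all 10 genes of the top panel.

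Among named genes above the median level whose groups did not overlap, those higher by the most differed less than those lower by the most. MIR221 had control levels of 4.93, 4.81 and 5.04 against 5.99, 5.31 and 5.77, so all 3 anti-LINC01269 arrays lay above the controls. The difference was 0.76 ± 0.183 (1.70-fold higher). TRIM61, a gene of the tripartite motif family, stood at 4.21, 4.18 and 4.35 against 4.86, 4.88 and 5.21, a difference of 0.73 ± 0.144. Its 3 anti-LINC01269 arrays lay close together, which sets its pattern apart from that of RTKN2. MAP1LC3B2, an autophagy gene nearly identical to MAP1LC3B, with which it can share probes, also had the 3 arrays near each other, at 6.81, 6.42 and 6.53 against control levels of 5.96, 6.07 and 5.92 (0.60 ± 0.12).

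FOSL1, which encodes the AP-1 subunit FRA1, stood at 5.87, 5.49 and 5.67 in the controls against 7.19, 5.89 and 6.08. Replicate 1 was far above the rest, and replicate 2 stood just above the highest control. The difference of 0.71 ± 0.318 became 0.31 without replicate 1. The gene of the matrix glycoprotein tenascin-C, TNC, stood at 7.11, 7.18 and 7.10 against 8.30, 7.34 and 7.78 (0.68 ± 0.213). The remaining genes of the 10 were MIR24-2 (0.66), the hair keratin-associated gene KRTAP10-5 (0.65), the protocadherin gene PCDH18 (0.62), the neural adhesion gene L1CAM (0.61) and MIR27B (0.59). Replicate 1 was farthest from the control mean in 8 of these 10 genes, and replicate 2 was nearest in 9.

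Ranking by p instead of by size brought forward other genes, most of them at low levels. MIR548A1 had the smallest p of the named features that were higher, with control levels of 1.23, 1.66 and 0.79 against 2.44, 2.96 and 2.76 (1.49 ± 0.243). It lies at the 8.4 percentile of all features, and a second feature of that name repeats its values. SYCE3, a gene of the synaptonemal complex (0.73 ± 0.139), and KRTAP5-1 (0.45 ± 0.0866) came next. In the other direction the smallest p belonged to MIR488 (-0.79 ± 0.172), MIR4798 (-0.62 ± 0.16), MIR326 (-0.50 ± 0.129), the glycosyltransferase gene GALNT5 (-0.55 ± 0.144) and MIR4503 (-0.72 ± 0.19). Their 3 anti-LINC01269 arrays were more alike than those of RTKN2. MIR326, the highest of these 5 in level, stood at 6.82, 6.53 and 6.66 in the controls against 5.94, 6.29 and 6.28. A second feature of MIR326 differed by less, at -0.34, as did a second feature of MIR4503, at -0.24.

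Other members of the microRNA clusters, added after their values were seen, kept the order of arrays. MIR222 stood at 5.17, 4.75 and 4.84 in the controls against 8.14, 4.88 and 6.84. Replicate 2 lay within the control range, and the difference of 1.70 ± 0.702 (3.25-fold higher) became 2.57 without it. MIR27A stood at 5.04, 5.06 and 5.20 against 6.75, 5.08 and 6.30 (0.94 ± 0.378), again with replicate 2 among the controls. MIR23A, of the same cluster on chromosome 19, stood at 4.53, 4.0 and 4.92 against 6.20, 4.60 and 5.32 (0.89 ± 0.401). The last of that cluster, MIR24-2, stood at 6.15, 6.08 and 6.20 against 7.28, 6.28 and 6.87, with no overlap (0.66 ± 0.226).

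The sister cluster on chromosome 9 differed less. MIR27B stood at 5.72, 5.76 and 5.25 against 6.50, 5.85 and 6.15 (0.59 ± 0.2), and MIR23B at 5.48, 5.90 and 6.0 against 6.71, 5.93 and 6.11 (0.46 ± 0.223). Replicate 1 was again the highest array of both. MIR24-1 differed by 0.08 at levels from 1.72 to 2.20, far under the median of all features (4.57), and by -0.052 without control replicate 3.

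**Figure D2:**
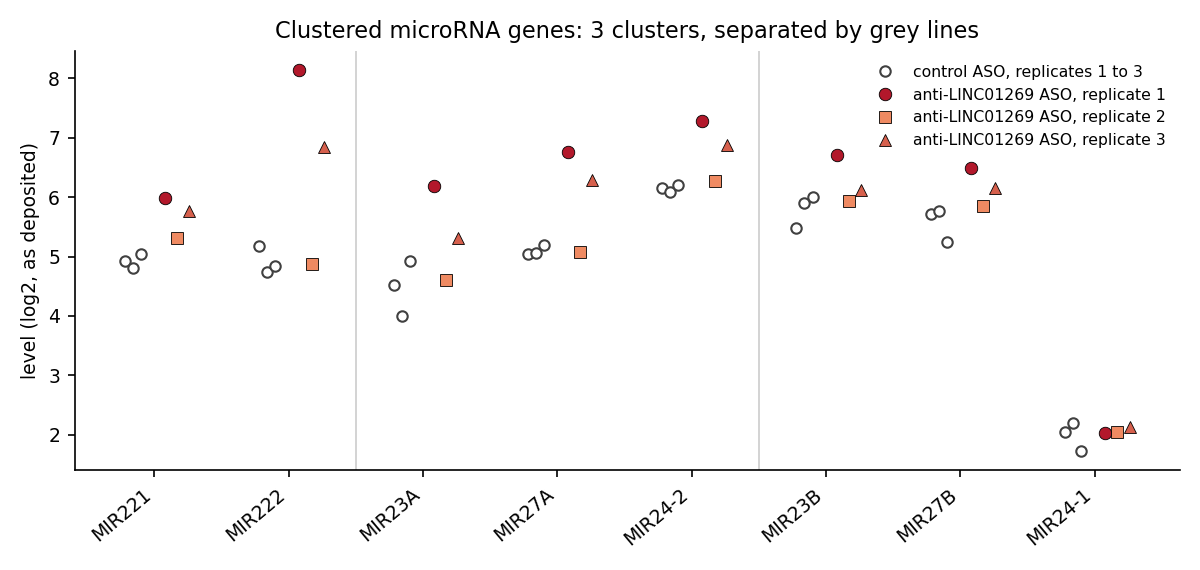
Levels (log2, as deposited) in each array for 8 microRNA genes of 3 clusters, on chromosomes X, 19 and 9 from left to right; open circles are control arrays and filled symbols the 3 anti-LINC01269 replicates. MIR222 reads 8.14 in replicate 1, 6.84 in replicate 3 and 4.88 in replicate 2, which lies among the controls.

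The spread of the replicates was similar over all features and unequal for the genes above. Array medians were 4.56 to 4.63, and correlations over features were 0.985 to 0.987 within the control group, 0.985 to 0.986 within the anti-LINC01269 group and 0.983 to 0.987 between groups. Arrays of different groups were thus about as alike as arrays of 1 group. Among features above the median level, the SD of an array's deviation from its group mean was 0.165, 0.175 and 0.162 for control replicates 1 to 3, and 0.199, 0.187 and 0.167 for anti-LINC01269 replicates 1 to 3. The weights that limma estimated for the arrays were lowest for anti-LINC01269 replicate 1 (0.704) and highest for anti-LINC01269 replicate 3 (1.41).

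The order of the anti-LINC01269 arrays was counted over features above the median level with a difference of at least 1.5-fold and no overlap. Of 97 such features that were lower (0.362% of 26808), replicate 1 was farthest from the control mean in 62, replicate 2 in 16 and replicate 3 in 19. Replicate 2 was nearest in 65. The full order of replicates 1, 3 and 2 was found in 48 of the 97, and in 24 of the 25 that carried a symbol. Their median SD was 0.146 over the control arrays and 0.458 over the anti-LINC01269 arrays, against 0.115 and 0.141 for all features above the median level. The same values chose these features, so the counts are a description.

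Among the 111 such features that were higher (0.414%), the arrays were more evenly placed. Replicate 1 was farthest in 48, replicate 2 in 33 and replicate 3 in 30, and the order of replicates 1, 3 and 2 was found in 30. Their median SD was 0.281 over the control arrays and 0.253 over the anti-LINC01269 arrays. The 12 that carried a symbol differed from the rest of this group, with that order in 9 of 12.

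Reading an array that had not been used for the choice gave a separate view of the same spread. Features above the median level, at least 1.5-fold away from the control mean in each of anti-LINC01269 replicates 1 and 3, were chosen and then read in replicate 2. The 112 features chosen as lower had a median size of 0.97 in the arrays that chose them and of 0.15 in replicate 2. Replicate 2 was on the same side of the control mean in 83 of the 112 and reached 1.5-fold in 23. For comparison, features chosen on replicates 2 and 3 numbered 51, and their median went from 0.90 to 0.52 in replicate 1. Features chosen on replicates 1 and 2 also numbered 51, and their median went from 0.93 to 0.44 in replicate 3. Leaving out a control array in the same way, with the anti-LINC01269 mean as the reference, took the median of features lower in the other controls from 0.85 to 0.39 for control replicate 1, from 0.85 to 0.21 for control replicate 2 and from 0.82 to 0.35 for control replicate 3. Those features were higher with the anti-LINC01269 ASO. Features higher in the other controls, and so lower with the ASO, kept more of their size. Their median went from 0.85 to 0.59 for control replicate 1 and from 0.84 to 0.75 for control replicate 2. For control replicate 3 it went from 0.82 to 0.58. A drop was thus seen for every array, in differing size. Among features lower with the ASO, that of anti-LINC01269 replicate 2 was the largest. That of control replicate 2 came nearest to it, but for features higher with the ASO. Each choice and its reading use the same reference mean, so they are not independent of each other.

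Named genes made up 33 of the 112 lower features (32 genes). In each of the other choices of lower features on anti-LINC01269 arrays they were 1 of 51. Among features higher in the other controls they were 31 of 121, 27 of 91 and 32 of 132, leaving out control replicates 1 to 3. Of all features above the median level, 11262 of 26808 were named, a larger share than in any of these choices. Of the 33, replicate 1 was farther from the control mean than replicate 3 in 31, and replicate 2 lay within the range of the 3 controls in 13. Their median difference was -1.45 in replicate 1, -0.81 in replicate 3 and -0.08 in replicate 2. Beside the genes already described, they included CDKAL1, which encodes a tRNA-modifying enzyme, SPIRE1, which encodes an actin nucleator, UVRAG, whose product acts in autophagy and endosome traffic, and the claudin gene CLDN16. These were picked after their values were seen. CDKAL1 stood at 9.33, 9.36 and 9.32 in the controls against 7.65, 9.29 and 8.52 (-0.85 ± 0.349). UVRAG stood at 8.58, 8.52 and 8.56 against 7.60, 8.56 and 7.84 (-0.55 ± 0.217), with replicate 2 inside the control range.

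Of features chosen as higher on replicates 1 and 3, 139 were found, 13 of them named. Their median went from 0.86 to 0.39 in replicate 2, which was on the same side in 111. The 127 features chosen as higher on replicates 1 and 2 went from 0.86 to 0.42 in replicate 3, a similar drop, and the 87 chosen on replicates 2 and 3 from 0.84 to 0.63 in replicate 1. TRIM61 was the named gene that kept most of its size there, at 0.63 above the control mean, while MIR222, MIR27A and the calcium-binding gene NECAB1 lay slightly below it.

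**Figure D3:**
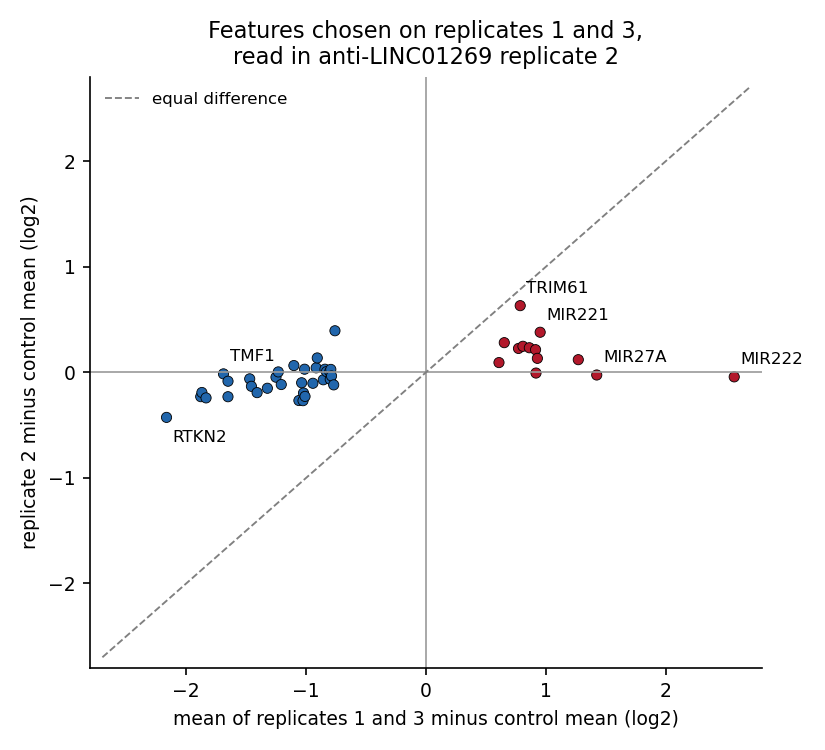
Named features above the median level chosen on anti-LINC01269 replicates 1 and 3, with the mean of those replicates minus the control mean (log2) on the horizontal axis and replicate 2 minus the control mean (log2) on the vertical axis; blue points were lower, red points higher, and the dashed line marks equal differences. Points of the 33 lower features lie between -0.43 and 0.39 on the vertical axis, close to 0 and off the dashed line.

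A difference was said to rest on 1 array where leaving that array out took away more than 50% of its size or turned its sign. By that rule 377 of the 1305 differences of at least 1.5-fold (28.9%) rested on 1 array. The arrays shared these fairly evenly, with 63, 68 and 57 on control replicates 1 to 3 and 83, 47 and 59 on anti-LINC01269 replicates 1 to 3. Above the median level they did not. There, 60 of 189 lower differences (31.7%) rested on 1 array, 39 of them on anti-LINC01269 replicate 1. Of 209 higher differences, 50 (23.9%) did so, 16, 10 and 17 of them on control replicates 1 to 3 and 6 on anti-LINC01269 replicate 1.

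Among named features, 25 of 71 lower differences (35.2%) rested on 1 array, 20 of them on anti-LINC01269 replicate 1, against 8 of 55 higher differences (14.5%). The Golgi gene TMF1 was the largest, at 8.83, 8.95 and 8.71 in the controls against 6.54, 8.81 and 7.73. Its difference of -1.13 ± 0.483 became -0.56 without replicate 1, and a second, lower feature of TMF1 differed by -0.31. HLTF became -0.53 without replicate 1, TP53INP1 became -0.49, and the thioredoxin-domain gene TXNDC16 went from -0.82 to -0.33. MIR548X2 (-0.76) rested instead on control replicate 1, at 5.13 where the other 5 arrays lay between 2.94 and 3.63. A second feature of MIR548X2, at a lower level, differed by 0.28.

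Of higher differences that rested on 1 array, FOSL1 was the only one of the 5 largest with levels above the median of all features in all 6 arrays. MIR516B2 (1.0) was carried by anti-LINC01269 replicate 3, at 3.90 where the other arrays lay between 1.52 and 2.03. MIR548AM (0.75) was carried by replicate 2 and MIR548AD (0.63) by replicate 3. Another feature of MIR548AM, with other values, differed by -0.13. SCARNA15 (0.85), a gene of a small Cajal body RNA, was carried by control replicate 2, at 2.41 where the others lay between 3.47 and 4.35.

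**Figure D4:**
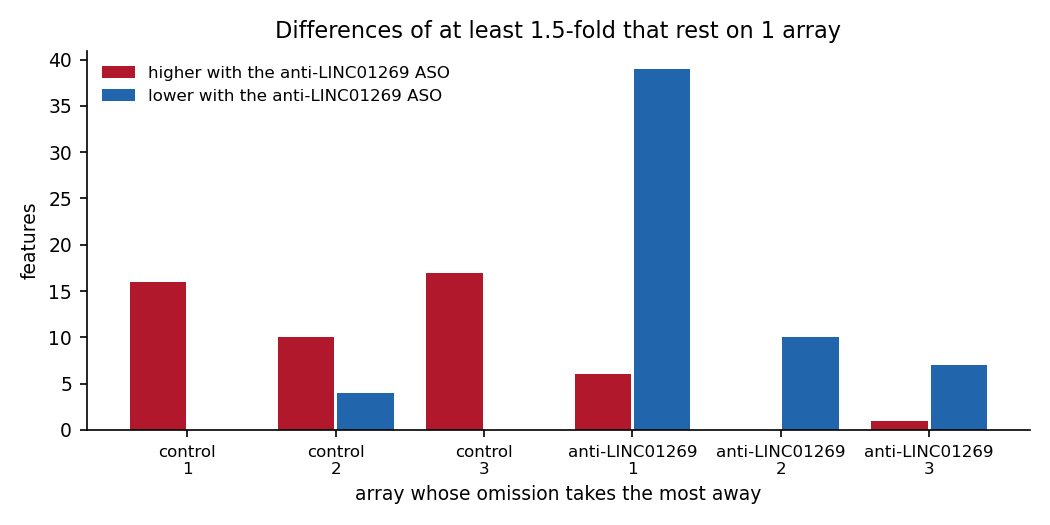
Number of features above the median level whose difference of at least 1.5-fold rested on 1 array, by the array whose omission took the most away; red bars are features higher and blue bars features lower with the anti-LINC01269 ASO. Anti-LINC01269 replicate 1 carries 39 of the lower features, against 10 and 7 for replicates 2 and 3.

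Some features differed at least 2-fold in 1 array from the mean of the other 5, which lay within 0.5 of each other. There were 31, 50 and 22 such features for control replicates 1 to 3, and 67, 24 and 35 for anti-LINC01269 replicates 1 to 3. Replicate 1 had 19 named ones, 14 of them lower. MIR130B, whose mature product has the sequence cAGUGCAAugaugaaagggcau with the seed in capitals, stood at 10.08, 10.07 and 10.03 in the controls against 11.27, 9.94 and 10.14. It was higher in replicate 1 alone, and its difference of 0.39 became -0.02 without that array. A second feature named MIR130B, at a lower level, differed by -0.18, with replicate 1 the lowest array, so the features of this gene disagree. The adhesion gene CEACAM6 stood at 7.29, 7.11 and 7.05 in the controls against 5.80, 7.39 and 6.90, and the protease gene BACE2 at 7.64, 7.77 and 7.82 against 6.53, 7.83 and 7.37. The kinase gene HIPK2 was at 9.08, 9.09 and 9.11 against 7.93, 9.01 and 8.64. These 3 genes were low in replicate 1, and replicate 2 lay near or above the controls.

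Immediate early and MAPK feedback genes, which growth factors switch on within minutes to hours through ERK, were higher in 22 of 25 measured members, with a median difference of 0.18. Over all 14884 genes with 1 feature each, 52.1% were above 0 and the median was 0.0067. The share above 0 was 52.2% of the features with a symbol and 51.3% of all features. None of the 25 passed. At an unadjusted p under 0.05, 6 were higher (over all features 2.85% were) and 0 lower, and 11 were higher without overlap (5.95% of all features were). The list's median over members was 0.23 in replicate 1, 0.10 in replicate 2 and 0.16 in replicate 3, so this difference was seen in each anti-LINC01269 array and was largest in replicate 1. The list was known from earlier results of these data, and its direction is no independent evidence.

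Transcription factor genes of the list ranged widely, from FOSL1 (0.71) to FOS (-0.13). KLF10, an early gene of growth factor and TGF-beta signalling, stood at 7.63, 7.62 and 7.45 in the controls against 8.23, 7.81 and 7.88 (0.41 ± 0.122). MYC stood at 6.61, 6.52 and 6.55 against 7.43, 6.74 and 6.83 (0.44 ± 0.174), and the PEA3 family gene ETV4 at 5.70, 5.71 and 5.94 against 6.40, 6.02 and 6.0 (0.36 ± 0.14). In each the groups did not overlap and replicate 1 was highest. The feedback phosphatase gene DUSP6, which switches ERK off, stood at 6.45, 6.36 and 6.36 against 6.62, 6.57 and 6.78 (0.26 ± 0.093), here with replicate 3 highest. The feedback inhibitor genes SPRY4 (0.32) and SPRY2 (0.31) and the phosphatase genes DUSP1 (0.30) and DUSP4 (0.17) were also above 0. FOS (-0.13), DUSP5 (-0.02) and ETV1 (about 0) were the 3 members not above 0.

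**Figure D5:**
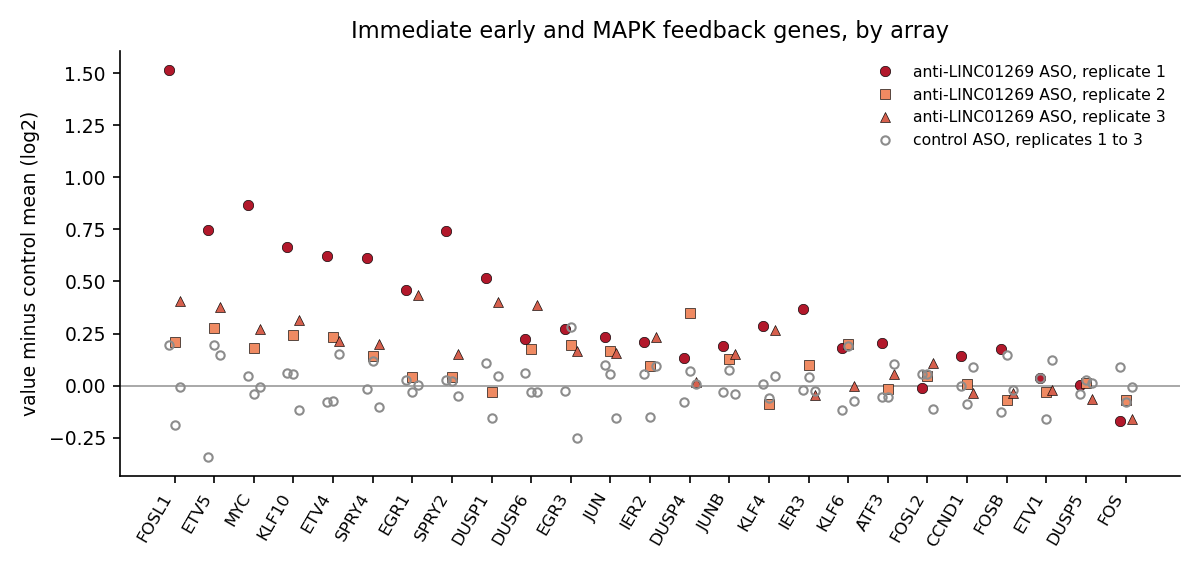
Level in each array minus the mean of the control arrays (log2) for the 25 measured immediate early and MAPK feedback genes, in order of their difference; open circles are control arrays and filled symbols the 3 anti-LINC01269 replicates. Most members lie above 0 in all 3 replicates, and FOSL1, at the left, is highest in replicate 1.

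Genes upstream of that pathway went both ways, with a median near 0. Of 21 measured ERBB receptors, ligands and adaptors, 8 were above 0 and the median was -0.05. The ligand gene NRG3 was lower (-0.54 ± 0.192) at a level under the median of all features. The kinase gene PTK6 (-0.26), the ERBB inhibitor gene LRIG1 (-0.24) and the adaptor gene GAB1 (-0.25) had overlapping groups. The adaptor gene GRB2 (0.12) was the 1 member higher without overlap (5.95% of all features were). SHC1 (0.12), ERRFI1 (0.12), NRG1 (0.19) and HBEGF (0.22) were above 0 with overlapping groups. EGFR stood at 10.81, 11.03 and 10.99 against 10.90, 11.12 and 10.89 (0.03 ± 0.087, adjusted p = 0.982). ERBB3 differed by -0.06. Of 12 neighbours of ERBB2, 4 were above 0, with a median of -0.04. They included the Mediator gene MED1 (0.22 ± 0.0823) and the migration gene MIEN1 (-0.23 ± 0.108), both without overlap. STARD3 (0.07) was also higher and PNMT (-0.18) also lower without overlap. Over all features, 5.95% were higher and 4.82% lower without overlap.

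Lists of cell identity had medians near 0. Luminal genes had 7 of 15 members above 0 and a median of -0.01, led by AGR2 (-0.41) and FOXA1 (-0.25), a pioneer factor of luminal cells. AGR2 stood at 5.81, 5.74 and 5.65 in the controls against 4.82, 5.59 and 5.56, so replicate 1 carried most of its difference. Epithelial adhesion genes had 5 of 12 above 0 and a median of -0.06. The splicing factor gene ESRP1 stood at 10.24, 10.30 and 10.25 against 9.58, 10.29 and 9.97 (-0.32 ± 0.156), which overlaps. Of 3 basal genes measured, KRT5 differed by 0.26 and KRT14 by -0.38.

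Mesenchymal genes had 5 of 10 members above 0 and a median of -0.03. Of these, 3, LOX, ZEB2 and VIM, stood higher in every anti-LINC01269 array than in any control array (5.95% of all features did). LOX, which encodes a collagen cross-linking oxidase, stood at 5.81, 5.60 and 5.63 against 6.14, 6.15 and 6.0 (0.41 ± 0.106). The repressor gene ZEB2, with a mean level under the median of all features, stood at 4.15, 3.73 and 4.26 against 4.58, 4.55 and 4.64 (0.54 ± 0.167). Unlike RTKN2, both had 3 anti-LINC01269 arrays that lay close together. VIM stood at 6.87, 6.79 and 6.62 against 7.12, 6.97 and 6.87 (0.23 ± 0.105). Its other features differed by 0.44 without overlap and by 0.26 with overlapping groups. The factor genes TWIST1 (-0.28) and SNAI2 (-0.16) were lower without overlap (4.82% of all features were).

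Genes that respond to foreign nucleic acids were given beside these because the treatment is an oligonucleotide. Interferon-stimulated genes were above 0 in 13 of 18 members with a median of 0.11, and nucleic acid sensing genes in 11 of 15 with a median of 0.09. Of the 18, 3 were higher without overlap (5.95% of all features were): IFIT5 (0.20), IRF7 (0.14) and IFI44 (0.34). IFI44 had a mean level under the median of all features. MX2 (-0.26) was lower by the most of the 18, with overlapping groups. The RNA sensor gene RIGI differed by 0.18 and the RNA-activated kinase gene EIF2AK2 by 0.20, both with overlapping groups. Of 8 RNase H and RNA decay genes, 6 were above 0 with a median of 0.05, led by the exosome gene EXOSC2 (0.37). No member of these lists passed.

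Stress lists had small medians. Unfolded protein response and ATF4 targets had 7 of 12 above 0 and a median of 0.05, with the transcription factor gene DDIT3 at 4.71, 4.75 and 4.56 against 5.51, 5.18 and 4.81 (0.50 ± 0.185) and the asparagine synthetase gene ASNS at 0.37. Heat shock genes had 7 of 9 above 0 and a median of 0.07, led by the pseudogene HSPA7 (0.71 ± 0.162), which is nearly identical to other HSPA genes, and the mitochondrial chaperonin gene HSPD1 (0.19). HSPA7 had a mean level under the median of all features. HSPA6, also under it, differed by -0.12 with overlapping groups. For p53 targets and apoptosis genes the count was 6 of 11 and the median 0.02, with TP53INP1 far below the other members. NF-kB inflammatory genes had 7 of 11 above 0 and a median of 0.06, with the adhesion gene ICAM1 at 0.23 and the chemokine gene CXCL2 at -0.40.

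Lists of proliferation and metabolism differed between the anti-LINC01269 arrays. DNA replication genes had 14 of 18 above 0 (median 0.04) and mitosis genes 11 of 17 (median 0.02), with CDC6, which loads the replicative helicase, at 0.28 and the cyclin gene CCNB2 at 0.19. The DNA replication median was 0.09 in replicate 1, -0.02 in replicate 2 and 0.04 in replicate 3. Glycolysis and hypoxia genes were above 0 in 12 of 13 members with a median of 0.16. That list's median was -0.02 in replicate 1, 0.26 in replicate 2 and 0.03 in replicate 3, so replicate 2 was the highest. Control replicate 2 was the highest control for this list, at 0.09 from the control mean against -0.05 and -0.04 for control replicates 1 and 3, and the hypoxia gene NDRG1 stood at 6.48, 7.16 and 6.52 against 6.33, 7.77 and 6.59. PGK1, a glycolytic kinase gene, stood at 7.85, 7.95 and 7.74 in the controls against 7.88, 8.23 and 7.92, and BNIP3, another hypoxia gene, at 8.33, 8.53 and 8.26 against 8.33, 8.86 and 8.47. Cholesterol and fatty acid synthesis genes had 5 of 15 above 0 and a median of -0.02, with -0.10, 0.09 and -0.0012 in replicates 1, 2 and 3, though the synthase gene HMGCS1 was higher in each array (0.22 ± 0.0607).

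Non-coding RNAs and genes of other cell types were also read. Of 9 named nuclear or long non-coding RNA genes, 4 were above 0, with a median of -0.02; GAS5 differed by 0.27 and MALAT1 by 0.11. Of 5 leukocyte markers measured, 3 were above 0 with a median of 0.05, and of 5 fibroblast and endothelial markers 3 were above 0 with a median of 0.08. The endothelial genes PECAM1 (0.50, at levels from 3.34 to 4.30) and VWF (0.18) were higher without overlap (5.95% of all features were), both under the median of all features. KDR (0.08), DCN (-0.08) and LUM (-0.01) had overlapping groups. The part of other cells in any result was not tested.

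The genes that lie next to LINC01269 differed little. By position in the RefSeq table, the 5 named genes measured on each side were taken, 10 in all. TTC9, a tetratricopeptide repeat gene, was lower by the most, at 8.33, 8.34 and 8.47 in the controls against 7.74, 8.33 and 8.12 (-0.32 ± 0.143), with overlap through replicate 2. The metalloproteinase gene ADAM21 differed by -0.28 at levels from 2.03 to 2.59. The kinase gene MAP3K9 differed by 0.07, and RGS6, a regulator of G protein signalling, by 0.09. The other 6 were ADAM20 (0.03), ADAM20P1 (0.17), SYNJ2BP-COX16 (-0.01), PCNX1 (-0.04), SIPA1L1 (-0.02) and LOC145474 (about -0.01). All of these but ADAM20P1 changed sign when 1 array was left out.

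The anti-AL078604.2 arrays of the other lines, each set against its own controls, show which of these differences were also seen with another ASO in another line. RTKN2 differed by 0.07 in MDA-MB-231 and by 0.13 in MDA-MB-468, CCDC91 by -0.06 and 0.13, and EVI5 by -0.02 and 0.09. RASAL2 (-0.79 and -0.59) and UBE2K (-0.53 and -0.43) were lower in those lines too. TNC (0.60 and 0.49), L1CAM (1.06 and 0.40), FOSL1 (0.38 and 0.41) and ANXA1 (0.73 and 0.81) were higher in them too. MIR221 (0.27 and 0.15) and MIR27B (0.28 and 0.05) were above 0 by less. ANXA1, an annexin gene added after its values were seen, stood in the SKBR3 arrays at 8.49, 8.44 and 8.48 against 9.59, 8.63 and 8.92 (0.57 ± 0.215). The difference between the SKBR3 comparison and the mean of the others was tested with limma over all 18 arrays. It called 0 of 53617 features, with 4298 at an unadjusted p under 0.05 and a smallest adjusted p of 0.154. For RTKN2 that difference was -1.68 (adjusted p = 0.326) and for TRIM61 0.70 (adjusted p = 0.324), so neither was shown to differ between the comparisons. Line and ASO target change together here and cannot be told apart. The fit also pools arrays whose medians differ by line.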

How the data were processed

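RNA was hybridised to 18 arrays, of which 6 were compared. The authors made the deposited values with Transcriptome Analysis Console, as the submitters' processing notes say. Version, summarization, normalization and build: not given in the sources used here. Values (0.41 to 13.46 in these arrays) were read as log2 expression from their range, since the deposited table names no scale. SKBR3 array medians (4.56 to 4.63) lay below those of MDA-MB-231 (5.41 to 5.43) and MDA-MB-468 (5.21 to 5.24), so the 6 arrays were fitted on their own, with all 53617 features and no filter. Arrays count no molecules, and precision is limited by their number. There were 0 pairs of identical arrays.

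Tests used R 4.3.3 and limma 3.58.1 with an intensity trend, two-sided, with Benjamini-Hochberg adjustment at a threshold of 0.05, 4 residual and 3.57 prior degrees of freedom. Tested on simulated data (53617 features), limma found 39 of 67 features simulated at 1.5-fold, 67 of 67 at 2-fold and 66 of 66 at 3-fold, and called 6 others. In that simulation the spread depended on level alone and was equal in both groups. Genes such as RTKN2 had a far wider spread in 1 group, so these counts do not say what share would be found in the real arrays.

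Named features carry 1 symbol. They are the 10 largest differences each way without overlap and above the median level, the 5 smallest p each way, those called without the 1 array whose omission gave most calls, the 5 largest each way that rest on 1 array, up to 4 members per list, the neighbours of LINC01269 and the markers. List members with several features were read from the one with the highest mean. Members and lists were chosen with earlier results of these data known. The reading of an array not used for the choice, features apart in 1 array, the difference between comparisons, the microRNA clusters and genes said to be added were chosen after the data were seen. Alternatives were a filter on low values, named features alone, quantile normalization, median centring, no trend, a robust prior, array weights, a replicate block, a fit of 18 arrays and each array left out.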

Additional observations from a re-analysis of the deposited data

How the results depend on the processing

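limma called 0 of 53617 features, and each of 15 alternative settings gave 0 or 1. The fit of all 18 arrays called 1, an unnamed feature (16651513, adjusted p = 0.0179) at 1.75, 2.30 and 2.07 in the controls against 3.56, 3.37 and 3.84, levels under the median of all features. Leaving out 1 array gave 0 to 1 calls, and RTKN2 was the 1 called, without anti-LINC01269 replicate 2. Features at an unadjusted p under 0.05 numbered 2745. They numbered 1553 with a filter on low values and 986 with only named features, where fewer features were tested, 4568 in the fit of 18 arrays and 4282 without anti-LINC01269 replicate 2. Same-numbered arrays of both groups had deviations that correlated by -0.02, 0.05 and 0.02, so the numbers were not taken to pair the samples, and the replicate block gave 0 calls. Differences that rested on 1 array numbered 377, against 871 when an omission had to leave 70% of the size and 41 among differences of at least 2-fold.

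Of 913 values of 62 genes under the alternatives, 902 kept direction and call, 1 gained a call and 10 turned sign, all when 1 array was left out. Leaving out 1 array in turn gave -0.047 to 0.11 for ADAM20 (lowest without control replicate 1), -0.032 to 0.0059 for SYNJ2BP-COX16, -0.085 to 0.0082 for PCNX1, -0.090 to 0.035 for SIPA1L1, -0.029 to 0.0072 for LOC145474, -0.052 to 0.19 for MIR24-1 and -0.020 to 0.64 for MIR130B (lowest without anti-LINC01269 replicate 1). The cause was not tested. Of 300 values for 20 list medians, 278 moved by less than the spread between replicates and 22 by more.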
